A study of Mus musculus with 2 samples.

Results

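The 8 genes described here encode intermediate filament proteins of progenitors (Vim, Nes), neurons (Ina, Nefl, Nefm, Nefh, Prph) and astrocytes (Gfap). They were taken by symbol from 43346 annotated genes, and each matched a single row in both libraries. Total RNA longer than 200 nucleotides was taken from hindbrains of healthy B6NCrl mouse embryos aged 10.5 days, and the labels name no treatment or mutation. The single group consisted of 2 pools labelled as biological replicates, replicate 1 made from 69 embryos and replicate 2 from 51, both sexes mixed, with 10 ng of RNA and synthetic spike-in RNA per library. Pooling hides differences between embryos, and a single donor ID is attached to both. Annotated genes received 38170089.9 estimated counts in replicate 1 and 36382245.3 in replicate 2. Of 10 hindbrain markers 9 reached 1 TPM (the transcripts-per-million scale, a level corrected for gene length and library size) in both libraries, led by Hoxa2 (47.1 and 27.3), and the exception was Egr2 (0.45 and 1.72). Of 5 forebrain markers 2 did, with Lhx2 the highest (21.2 and 14.7 TPM).

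Intermediate filaments are rope-like polymers built from coiled-coil proteins with a central rod between a variable head and tail. Vimentin (Vim), peripherin (Prph) and GFAP (Gfap) are type III proteins, while nestin (Nes), alpha-internexin (Ina) and the light, medium and heavy neurofilament chains (Nefl, Nefm, Nefh) are type IV. Neuroepithelial cells carry vimentin together with nestin, which needs a partner to polymerize. Young neurons switch to alpha-internexin and the light and medium neurofilament chains, joined by peripherin where axons leave the central nervous system. The heavy chain comes late as axons thicken, and GFAP marks astrocytes, which form after neurons.

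The end of the rod is the part of these proteins most alike between members, and its coding stretch is compared here. The stretches of 30 bases below start at the first base of a codon and were found by the closest in-frame match to Vim (GENCODE M21, mm10). Capitals mark bases that differ from Vim.
Vim: acctacaggaagctgctggaaggcgaggag
Prph: acctacaggaagctActggaaggGgaggag
Gfap: acctacaggaaATtgctggaGggcgaAgaA
Ina: GcTtacaggaagctCctggaaggTgaAgag
Nefh: GcTtacagAaagctCctggaaggcgaAgag
Nefl: GcTtacagAaaActCTtggaaggcgaAgag
Nefm: GcGtacaggaaActCctAgaGggGgaAgag
Nes: acAtacaggaCTctgctggaGgCTgagAaC
Identity to Vim ran from 28 of 30 bases in Prph down to 22 of 30 in Nefm and Nes. It did not separate the types, since Gfap of type III and Ina and Nefh of type IV each had 25 of 30. In the type III genes Vim (chr2:13580204-13580233, plus strand, exon 6 of 9), Prph (chr15:99057444-99057473, plus strand) and Gfap (chr11:102893040-102893069, minus strand) the stretch lay within an exon. In all 5 type IV genes an intron split it after base 8. That intron measured 388 bases in Nefl (the stretch spans chr14:68086091-68086508, plus strand) and 1436 bases in Nefm (chr14:68121363-68122828, minus strand). It measured 1377 bases in Ina (chr19:47021950-47023356, plus strand), 1685 bases in Nes (chr3:87973109-87974823, plus strand) and 2435 bases in Nefh (chr11:4941394-4943858, minus strand).

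The 8 genes ranged from among the most abundant coding transcripts to a few reads. Vim was far the highest at 929 and 858 TPM in replicates 1 and 2 (893 ± 50.4, SD, n = 2), rank 77 and 107 of 21474 protein-coding genes. Nefl followed with 309.6 and 226 TPM (268 ± 59.1) and Nefm with 279.7 and 249 TPM (264 ± 22.0). Next came Ina with 197 and 63.0 TPM (130.2 ± 94.95). Nes, the other progenitor filament, stood at 113 and 91.5 TPM (102 ± 14.9). Prph was much lower at 10.2 and 6.50 TPM (8.37 ± 2.64). Nefh, at 0.35 and 0.24 TPM (0.295 ± 0.0778), rested on 37 and 23 counts, and Gfap on 1 and 5 counts (0.01 and 0.15 TPM).

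**Figure D1:**
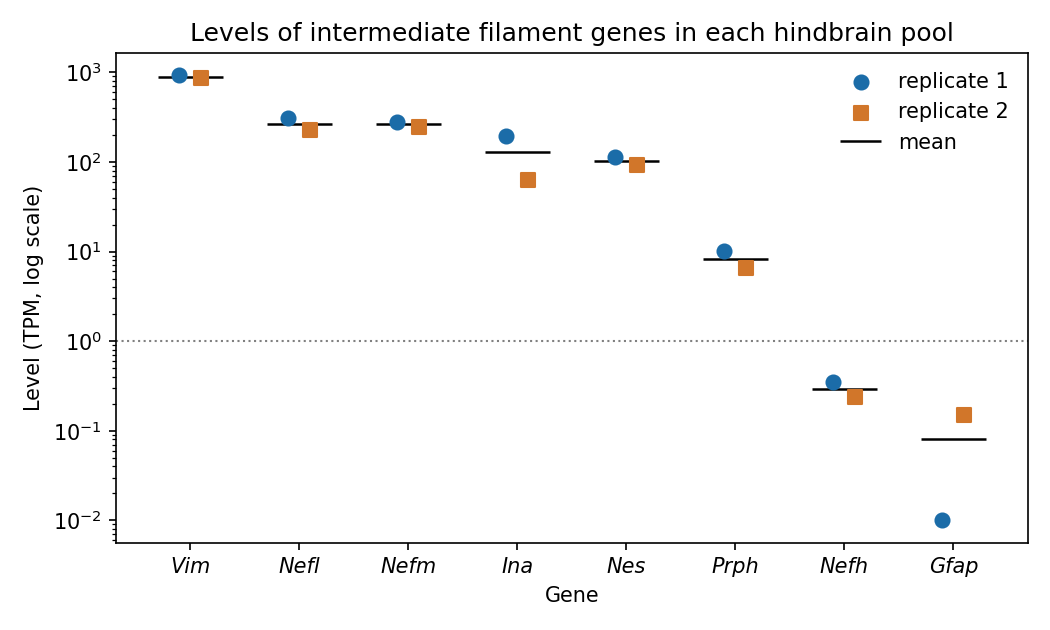
Level of each filament gene in TPM (vertical axis, log scale), with a circle for replicate 1, a square for replicate 2 and a bar for their mean. Vim lies above all others in both pools, Ina has the widest gap of the genes above the dotted line at 1 TPM, and Nefh and Gfap lie below that line.

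In this order 5 of 7 neighbouring pairs did not overlap between the libraries. The exceptions were Nefl with Nefm and Ina with Nes. Nefm was at 0.903 times Nefl in replicate 1 and 1.10 times in replicate 2, so the medium and light chains changed places. Ina was above Nes 1.75-fold in replicate 1 and below it in replicate 2, at 0.689 of its level. The other steps kept their direction in TPM. That from Nefh to Gfap rested on few counts, 37 against 1 in replicate 1 and 23 against 5 in replicate 2. In the deposited posterior mean TPM, another estimate of level, it was reversed in replicate 2 (0.25 for Nefh and 0.35 for Gfap). Nefl was at 0.333 and 0.264 of the TPM of Vim, and Nes was 11.0 and 14.1 times Prph.

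Of the summed TPM of the 8 genes, 1839 in replicate 1 and 1494 in replicate 2, Vim held 50.5% and 57.4%. Nes held nearly the same share in both pools, 6.12% and 6.13%. The 5 neuronal filament genes together held 43.4% and 36.4% (39.9 ± 4.89%, SD, n = 2). Within this neuronal sum Nefl took 38.8% and 41.5%, Nefm 35.1% and 45.7%, Ina 24.8% and 11.6%, Prph 1.28% and 1.19%, and Nefh 0.0439% and 0.0441%. The light chain gene thus exceeded the heavy chain gene 884-fold and 942-fold in TPM. These shares compare genes within a library and do not depend on scaling between libraries, but they weigh transcripts by length. In counts without length correction the neuronal share was 54.6%, and with every count of a gene set on the transcript with its longest coding sequence it was 49.8%.

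**Figure D2:**
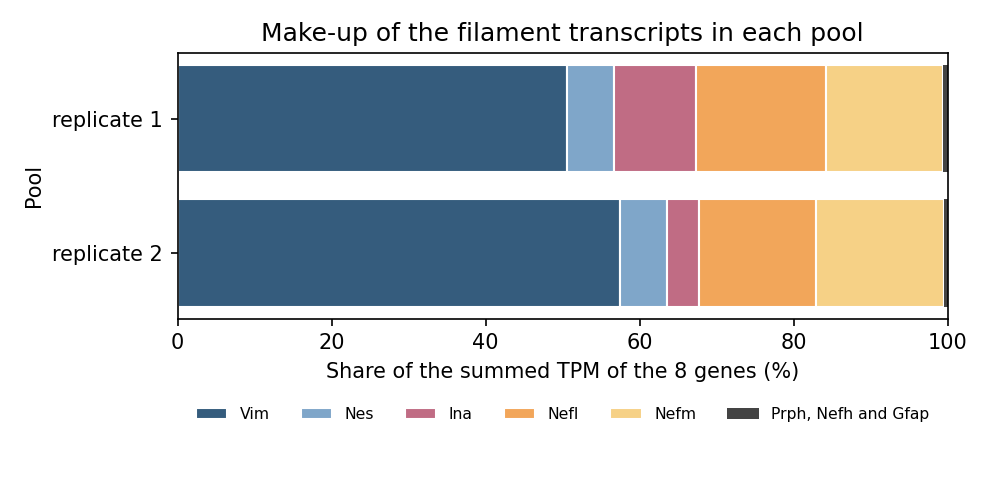
Share of the summed TPM of the 8 genes (horizontal axis, percent) held by each gene, with a bar for each pool. Vim and Nes together make up 56.6% and 63.5%, and Ina holds 10.7% and 4.22% while Nefl and Nefm keep 15.1% to 16.8% each.

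Vim lies at chr2:13573927-13582826 on the plus strand (mm10). Its level depended on how its reads were divided among 6 annotated transcripts. The largest share of its TPM, 36.5% and 37.5%, went to a transcript of 535 bases that the annotation classes as a retained intron. That transcript held only 11.9% and 12.2% of the counts of the gene, and 483 of its 535 bases lie in exons of coding Vim transcripts, and 52 lie outside them. The coding transcripts of 1777 and 2193 bases took 33.3% and 29.1% of TPM in replicate 1 and 30.8% and 31.0% in replicate 2. With all counts set on the transcript of 2193 bases, Vim came to 594 and 547 TPM, still the highest of the 8. Other tissues also carry vimentin, and their markers were present in both pools. All 8 mesenchyme markers (summed TPM 652 and 560, led by Col3a1 at 311 and 313), all 6 endothelial markers (131 and 154, led by Egfl7) and all 5 macrophage markers (72.4 and 48.7, led by C1qb) reached 1 TPM in both libraries. No marker of these lists was at 0. Their part in the level of Vim was not tested.

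Nes lies at chr3:87971078-87980451 on the plus strand. Its full transcript of 6126 bases held 57.1% and 58.5% of its TPM, and a coding transcript of 5958 bases held 29.9% and 37.7%. A transcript of 1311 bases, classed as a retained intron and with 290 of its bases outside coding exons, had 477 counts in replicate 1 and 101 in replicate 2. Its share was 12.9% and 3.76% of TPM but 2.93% and 0.788% of counts. It is the transcript of Nes with the largest difference between the pools. The coding transcripts alone stood at 64.3 and 53.6 TPM (6126 bases) and 33.7 and 34.5 TPM (5958 bases).

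Nefl (chr14:68083863-68089095, plus strand) and Nefm (chr14:68082590-68124846, minus strand) are neighbours that overlap. The overlap comes from a long coding transcript of Nefm with 3680 bases, which covers 1108 bases of Nefl on the opposite strand. It received 1.12% and 0.587% of the TPM of Nefm, while the transcript of 3334 bases took 98.9% and 99.4%. Reads of the shared bases were divided between the genes by estimation, since the counts of Nefl and Nefm were fractional (27454.57 and 24485.43 in replicate 1) and added up to the whole number 51940. No source used here says whether counting took the strand into account. The counts of the overlapping Nefm transcript equalled 1.11% and 0.707% of those of Nefl, so moving all of them to Nefl left its ratio between the pools at -0.52 (log2).

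Ina (chr19:47014698-47025327, plus strand) has a single annotated transcript. Its first 456 bases overlap an exon of Nt5c2, a nucleotidase gene on the minus strand. The Nt5c2 transcript in question carried 2536 and 2060 counts, which equals 15.1% and 42.9% of the counts of Ina (16753 and 4799). If all of these were counted for Ina, the log2 ratio of replicate 2 over replicate 1 would be -1.40 in place of -1.71.

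Prph (chr15:99055174-99058978, plus strand) had 470 and 268 counts, divided between 2 coding transcripts in nearly equal proportion in both pools. The shorter, of 1769 bases, held 68.4% and 68.8% of its TPM, and the longer, of 1865 bases, held 31.6% and 31.2%. The authors' deposited intervals of the transcripts did not overlap in either library (5.35 to 8.37 against 1.93 to 4.54 TPM in replicate 1, and 3.18 to 5.48 against 1.12 to 3.13 TPM in replicate 2). The longer one keeps 96 bases of exon 4 that are an intron in the shorter one. This segment lies at chr15:99056937-99057032 on the plus strand, holds 32 codons without a stop and leaves the reading frame intact. It is shown because it is the only coding difference between the peripherin transcripts measured here.
Prph segment: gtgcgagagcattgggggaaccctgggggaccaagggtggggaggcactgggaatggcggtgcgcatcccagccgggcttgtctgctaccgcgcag
The share of the shorter transcript was 68.6 ± 0.276% (SD, n = 2).

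**Figure D3:**
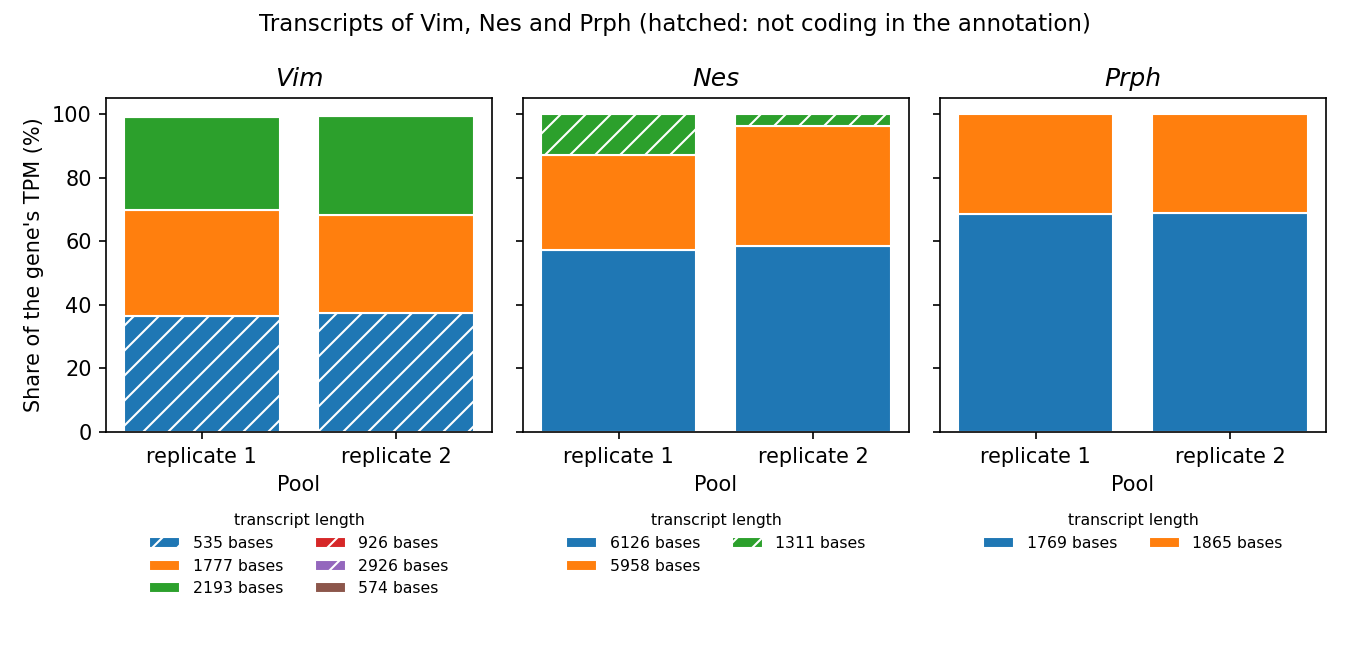
Share of TPM (vertical axis, percent) of each annotated transcript of Vim, Nes and Prph in each pool, with transcripts that are not coding hatched. The 535-base transcript takes 36.5% and 37.5% of Vim, the 1311-base transcript of Nes takes 12.9% and 3.76%, and the 2 transcripts of Prph keep their proportions.

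Nefh (chr11:4938754-4948064, minus strand) and Gfap (chr11:102887336-102900912, minus strand) were barely detected. The counts of Nefh allow 26.1 to 51.0 in replicate 1 and 14.6 to 34.5 in replicate 2 (exact Poisson intervals, 95%, which cover counting error only). The single count of Gfap in replicate 1 allows 0.0253 to 5.57 and the 5 counts in replicate 2 allow 1.62 to 11.7, so the intervals overlap. Astrocyte markers were mixed beside this. Of 7, 4 reached 1 TPM in both libraries, led by the gap junction gene Gja1 (78.6 and 119 TPM), which neuroepithelial cells also express. The astrocyte gene S100b was at 0.05 and 0.06 TPM.

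RefSeq promoters (GRCm38.p6) were at hand for 5 of the 8 genes. The 30 bases from 40 to 11 before the RefSeq start are shown because this is where a TATA box lies when a promoter has a classical one. Capitals mark TATAAA, searched as these letters on the gene's strand.
Vim: aacagtgtTATAAAagcagcgcccttggcg
Prph: ccgcagggcTATAAAgccgccccgcatcgg
Ina: caaccccgcgccttaaaagccccgcacacc
Nes: aataccctcgcttcagctcgctgctggaat
Gfap: gcccagctccaccccctcaggctattcaat
The windows are chr2:13574271-13574300 (plus), chr15:99055134-99055163 (plus), chr19:47014641-47014670 (plus), chr3:87971053-87971082 (plus) and chr11:102897211-102897240 (minus), in the order printed. TATAAA starts 32 bases before the RefSeq start of Vim (chr2:13574311) and 31 bases before that of Prph (chr15:99055174), and the letters are not in the other 3 windows, nor on either strand of the 250 bases before those starts. Of 32851 RefSeq promoters 2.08% hold them in this window, and 12.4% hold them on either strand anywhere in the 250 bases before the start. The position holds for the RefSeq start of Vim alone. In GENCODE M21 the 2193-base transcript of Vim starts at 13573952, so the letters (13574279 to 13574284) lie in its first exon, and the 1777-base transcript starts within them, at 13574281. For Gfap the RefSeq start (chr11:102897200) is that of a 2600-base transcript with 0 counts in both libraries. The 2648-base transcript, with most of the few counts of Gfap, starts at 102897131, and the window before that start was not searched. The genes with the letters were the highest of the 8 (Vim) and one at a few TPM (Prph).

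The pools were then compared gene by gene as log2 ratios of replicate 2 over replicate 1, from counts scaled so that the typical gene is near 0 (TMM scaling of CPM, counts relative to library size, with a prior count of 2). With 1 library on each side there is no test, and the difference between the pools is itself the replicate spread. Ina stood apart, 3.27-fold lower in replicate 2 (log2 -1.71, interval -1.76 to -1.67 from counting error at 95%). Of 15006 genes whose mean reached 1 TPM, it had the 164th lowest ratio. Prph followed at -0.71 (-0.94 to -0.50) and Nefl at -0.52 (-0.55 to -0.49). Nes was at -0.25 (-0.29 to -0.22), Nefm at -0.24 (-0.26 to -0.21) and Vim at -0.18 (-0.21 to -0.16). These differences exceed counting error. Apart from that of Ina they are under 2-fold.

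Among the 6 filament genes whose mean reached 1 TPM, 1 was at least 2-fold apart, against 5.87% of all 15006 genes (4.17% lower and 1.7% higher in replicate 2). The median ratio of the 6 was -0.39, against 0.013 for all genes tested. All 6 ratios were below 0, as were 48.4% of all genes, but when spike-ins set the scale 5 of the 6 were above 0 and the median of all genes moved to 0.81. Ina alone stayed below 0 (-0.91), and it was then under 2-fold, so 0 of the 6 were 2-fold apart on that scale, against 27.5% of all genes. Relative to that median all 6 were lower in replicate 2, from -0.19 for Vim to -1.72 for Ina. This repeats the TMM ratios and is no separate support, since a change of scale shifts all genes nearly alike. The genes below the filter had ratios of -0.56 for Nefh (-1.41 to 0.20) and 1.27 for Gfap (-0.75 to 7.98), both with intervals that include 0. In bulk tissue, fewer cells of a type and less RNA per cell cannot be told apart. Ratios of other genes given further on use the same TMM scale. Under spike-in scaling those of Elavl4, Fabp7, Pak1, Cdk5, Kif5a and Pou3f3 turn positive. Those of Mapt, Elavl3, Ntrk2, Slc18a3, Lmna, Cdk5r1, Cdk5r2, Hspb1 and Pou3f1 stay below 0, that of Lmna barely (-0.01). Of these only that of Slc18a3 (-1.26) is past 2-fold.

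**Figure D4:**
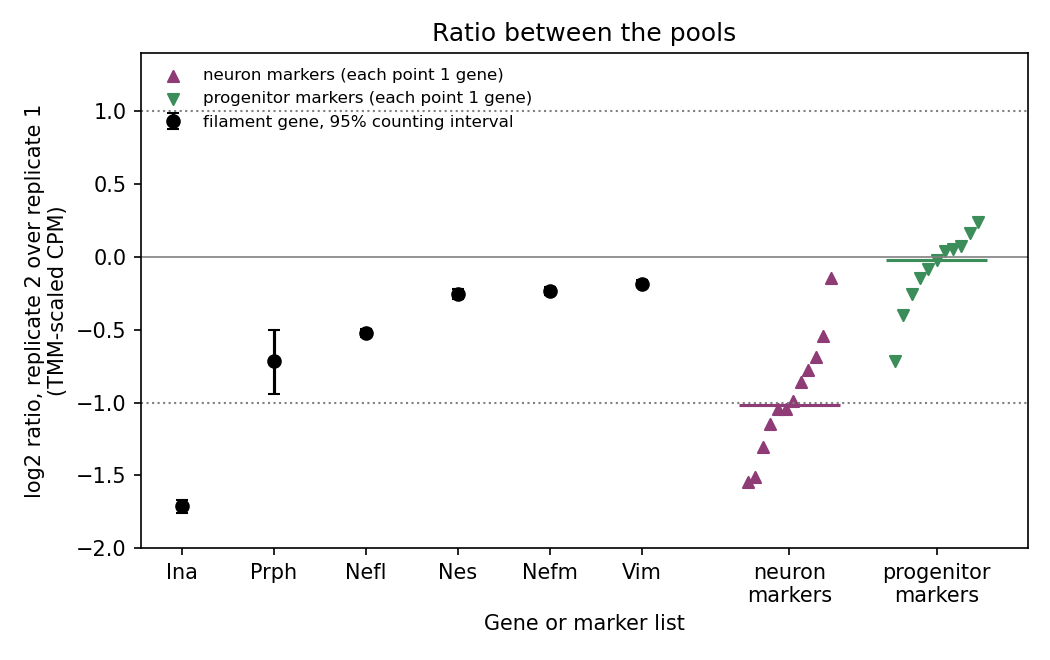
Log2 ratio of replicate 2 over replicate 1 (vertical axis, TMM-scaled CPM) for the 6 filament genes whose mean reached 1 TPM (circles, bars are counting intervals at 95%) and for each gene of the neuron and progenitor marker lists (triangles, lines are medians). Dotted lines mark 2-fold. Ina lies at -1.71 (-0.91 under spike-in scaling, where the other 5 are above 0), below every neuron marker (above 2 of 12 with the overlapping Nt5c2 counts added), and Nefl and Nefm lie above 11 of 12 neuron markers.

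The neuronal filament genes with a mean of at least 1 TPM had ratios from -1.71 (Ina) to -0.24 (Nefm). Relative to the typical gene all 12 neuron markers had lower levels in replicate 2, with a median of -1.02 and 6 of them past 2-fold. Of all genes 48.4% were below 0 and 4.17% were at least 2-fold lower. Under spike-in scaling 8 of 12 were below 0 with a median of -0.21, while the median of all genes was 0.81. None of the 12 was past 2-fold on that scale, against 27.5% of all genes in either direction. Mapt, the microtubule protein tau of axons, had the lowest ratio (-1.54; 53.5 and 19.6 TPM) and Elavl4, a neuronal RNA-binding protein, the highest (-0.15; 172.6 and 162 TPM). Ina was lower than all 12, but with the counts of the overlapping Nt5c2 transcript added (-1.40) it was above 2 of them, Mapt and Elavl3 (-1.51). Elavl3, an RNA-binding protein of neurons, is named after its value was seen. Prph, Nefl and Nefm lay within the range of the markers. Prph was above 9 of the 12, and Nefl and Nefm were above 11. Measured against the neuronal tubulin Tubb3 (727 and 473 TPM) within each library, Ina went from 0.271 to 0.133 of its level, Nefl from 0.426 to 0.478 and Nefm from 0.385 to 0.526. Set against Nefl, Ina went from 0.637 to 0.279.

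Vim and Nes lay within the range of the 11 progenitor markers, whose median was -0.02. Their ratios ran from -0.71 for Fabp7, a fatty acid binding protein of radial glia (685 and 437 TPM), to 0.24 for Prom1, a membrane protein of apical progenitors (66.2 and 81.8 TPM). Of these markers, 3 had a lower ratio than Vim and 2 a lower ratio than Nes. The TPM of Nes per TPM of Vim was 0.121 and 0.107. Summed neuronal over progenitor filament TPM was 0.765 in replicate 1 and 0.574 in replicate 2, beside 1.12 and 0.869 for summed neuron over progenitor markers.

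Markers of neurons with axons outside the central nervous system, the known site of peripherin, had ratios in both directions. Of 8 peripheral sensory neuron markers 7 reached 1 TPM in both libraries, with a summed TPM of 107 and 156. The neurotrophin receptor gene Ntrk2 had the lowest ratio of the 7 (13.8 and 6.95 TPM, -1.05), while Avil had the lowest level (1.27 and 0.53 TPM). Of 7 cranial motor neuron markers 5 were detected, with sums of 82.6 and 83.4 TPM, to which Isl1 gave 28.1 and 53.6. Of these 5, 4 had ratios below 0 (median -0.77), against 48.4% of all genes. Under spike-in scaling 2 were below 0, with a median of 0.03. The vesicular acetylcholine transporter Slc18a3 had the lowest ratio there (9.58 and 2.37 TPM, -2.06), and Isl1, which both lists hold, the highest (28.1 and 53.6 TPM, 0.92). Their part in the level of Prph was not tested.

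Other filament genes give the scale for these levels. The remaining type III and IV genes were low, with Des of muscle at 3.57 and 3.16 TPM and Synm, which joins vimentin filaments, at 1.09 and 1.85 TPM. Lens filament genes were near the limit (Bfsp2 at 2.02 and 0.76 TPM, Bfsp1 at 0.82 and 0.37 TPM). All 4 keratin genes of simple epithelia were present, from Krt19 (10.2 and 9.68 TPM) to Krt8 (37.5 and 51.1 TPM). Of the nuclear lamins, Lmnb1 was the highest (107 and 139.9 TPM, log2 ratio 0.36) and Lmna, which rises as cells mature, the lowest (19.4 and 11.5 TPM, -0.82).

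Genes that link, modify, carry or degrade filaments were mostly present. Of 7 matched cross-linker genes 4 were detected, led by Macf1 (28.3 and 34.5 TPM), with Sync the lowest (0.29 and 0.53 TPM), and none of the 4 was 2-fold apart (1 was under spike-in scaling, higher in replicate 2). All 7 kinases known to phosphorylate vimentin in division were detected. Cdk1, the main kinase of mitosis, led them at 326 and 413 TPM, and Rock2 was the lowest (5.01 and 7.58 TPM, log2 ratio 0.53). Of these 7, 6 had ratios above 0, the exception being Pak1 (-0.63), and none was past 2-fold. Under spike-in scaling all 7 were above 0, 6 were above the median of all genes (0.81) and 4 were at least 2-fold higher in replicate 2. Of all genes 48.4% were below 0 on the TMM scale. At least 2-fold apart in either direction were 5.87% of all genes, and 27.5% under spike-in scaling.

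Among 7 kinases of neurofilament tails and their activators, 2 were at least 2-fold lower in replicate 2 on the TMM scale and none under spike-in scaling. They were the neuronal activators of Cdk5, Cdk5r2 (2.11 and 0.81 TPM, -1.41) and Cdk5r1 (14.4 and 5.91 TPM, -1.36), the latter named after its value was seen. Cdk5 itself was at 32.8 and 26.9 TPM (-0.35). The 6 motor genes that carry neurofilaments ranged from Dync1i1 (1.11 and 1.63 TPM) to Kif5b (90.6 and 109.8 TPM). Kif5a, the neuronal kinesin heavy chain, had the lowest ratio of these (-0.72), and none was 2-fold apart, while under spike-in scaling 2 were at least 2-fold higher in replicate 2 (Kif5b at 1.07 and Dync1i1 at 1.26). Of 7 turnover and chaperone genes all were detected, led by the chaperone Hspa8 (2333 and 2960.3 TPM). Hspb1, a small heat shock protein that binds filaments, was the one past 2-fold (19.3 and 9.04 TPM, -1.15). Under spike-in scaling it was not, and 2 others were at least 2-fold higher in replicate 2. Of all genes 4.17% were at least 2-fold lower in replicate 2 on the TMM scale and 1.7% higher. Under spike-in scaling 27.5% of all genes were 2-fold apart in either direction, with a median of 0.81.

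Of 9 transcription and chromatin factors known to act on Nes or Gfap, 8 were detected in both libraries. Dnmt1, the maintenance DNA methyltransferase, led them at 72.4 and 106.9 TPM (log2 ratio 0.49). Pou3f1, of the POU factor class that binds the Nes enhancer, had the lowest ratio of the 8 (10.3 and 4.39 TPM, -1.29). Of the same class, Pou3f2 (35.2 and 38.3 TPM, 0.06) and Pou3f3 (14.22 and 14.15 TPM, -0.07) lay near 0, both named after their values were seen. Of the 8 factors, 6 had ratios below 0 and 2 above, while 48.4% of all genes were below 0. Under spike-in scaling 3 of the 8 were below 0. Nfix, which turns on with later glial development, was at 0.23 and 0.06 TPM. Its relatives Nfia (13.8 and 9.08 TPM) and Nfib (13.8 and 6.95 TPM) were detected, both named after their values were seen. With 2 libraries no likeness of pattern between genes can be measured, so no gene is named for resembling a filament gene.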

How the data were processed

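Per the file headers, each library has a deposited gene table and transcript table with an expected count (an estimated count, not whole), TPM, posterior mean TPM and FPKM. The transcript tables also give, per the file headers, the percent of each isoform; percents in the text were recomputed from TPM. Bounds of TPM intervals are deposited too, with no level stated. The deposited file notes name mm10 and annotation M4; the software behind the alignment and the counts was "not given in the sources used here". Effective length was length minus 99 bases. Symbols, coordinates and transcript classes came from GENCODE M21 on the same assembly, matched without version (42462 of 43346 genes). Of 139 listed genes 1, a cross-linker, had no match and was not analysed here.

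Expected counts were rounded, scaled by TMM in edgeR 4.0.16 (R 4.3.3) and turned into log2 ratios. On simulated counts of 43346 genes, true log2 changes of -1 and 1 between the pools, given to 50 genes each, had medians of -0.996 and 1.08. This checks the calculation only. It cannot decide between TMM and spike-in scaling, because the typical gene was left unchanged in the simulation. Spike-ins were kept out of library sizes. Alternatives were other scalings (DESeq2, total count, spike-ins), prior counts, filters, posterior mean TPM, FPKM, counts without length correction and leaving out a replicate. With 1 group no test was possible. The members and lists were chosen with earlier results of these data known. Named genes are the members and, for each list, those of highest and lowest level and ratio. Some genes that this rule names are not reported here. Other tools were DESeq2 1.42.0, Python 3.11.15 and scipy 1.17.1.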

Additional observations from a re-analysis of the deposited data

How the results depend on the processing

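No paired analysis was possible because the series has 1 group. The share of the 5 neuronal genes in the summed TPM (39.9%) was 54.6% in counts without length correction and 49.8% with all counts on the transcript with the longest coding sequence, an alternative chosen after seeing the data. Both weigh Vim less, by their construction. Leaving out each replicate gave 36.4% to 43.4%. In the order of levels, 4 to 8 of the 8 genes kept their rank when a replicate was left out, and the exceptions, without replicate 1, were Nefl with Nefm and Ina with Nes. The count of members at least 2-fold apart (1) was 0 under spike-in scaling (27.5% of all genes there, against 5.87%) and 2 with no filter on low values, where Gfap (1 and 5 counts) was added. The leading transcript of Prph held 68.6% of TPM, 67.8% in posterior mean TPM, and the cause was not tested. Under DESeq2 size factors, total count and other prior counts, all 8 ratios stayed within their counting intervals. Spike-in scaling moved 7 of the 8 ratios and TPM ratios moved 5, and adding the counts of the overlapping Nt5c2 transcript (also chosen after seeing the data) moved that of Ina to -1.40, above 2 of the 12 neuron markers. Depth limits Nefh and Gfap, whose ratios have intervals that include 0.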
